A study of Mus musculus with 10 samples.

Results

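The autophagy core and lysosome genes are 39 genes whose products build the autophagosome or form the lysosome that digests its cargo. They were taken by symbol from the 48709 genes of the count tables, through the GENCODE mouse M21 annotation, and sorted by known function into 10 classes. All 39 passed the filter on low counts, which left 15660 genes tested. The series compared primary mouse hippocampal neurons, kept for 10 days in vitro, after 6 h with 2 µg/mL tunicamycin (6 libraries) or with the solvent DMSO (4 libraries). No genetic alteration is given for either group, and the question was how gene expression in these neurons responds to stress of the endoplasmic reticulum (ER). Tunicamycin stops cells from building the sugar chain that is attached to new glycoproteins, which then fail to fold in the ER. Whether each library is its own culture or animal is not said in the labels, so the p-values measure only the spread between libraries.

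In autophagy, a double membrane closes around cytoplasm, protein aggregates or organelles, and the resulting autophagosome fuses with a lysosome, whose acid hydrolases break the contents down. A kinase complex around ULK1 starts the process, a lipid kinase complex marks the site with phosphatidylinositol 3-phosphate (PI3P), and a conjugation system related to ubiquitination couples the small proteins of the LC3 and GABARAP family to the growing membrane. Neurons depend on this route because they do not divide and so cannot dilute damaged proteins, and TFEB-type transcription factors raise the transcription of many lysosomal and autophagy genes in other settings by binding a short promoter element built on CACGTG.

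Libraries held between 21055289 and 29234887 counts each, with 22182 to 23651 genes having at least 1 count. As a check of the treatment, all 8 ER stress genes of a list rose, among them Hspa5, the ER chaperone BiP, from 613 ± 44.6 (SD, n = 4) to 3211 ± 150 (SD, n = 6) CPM (counts per 1000000 counts of the library), Ddit3, the stress factor CHOP, from 34.3 ± 1.57 to 264 ± 13.1 CPM, Atf4 from 226 ± 9.51 to 594 ± 15.7 CPM, and Dpagt1, the enzyme that tunicamycin inhibits, from 23.2 ± 0.804 to 41.5 ± 1.19 CPM. Neuronal markers were abundant, the 6 of them summing to 6203 to 6707 CPM in the DMSO libraries, and astrocyte markers, 8 genes, summed to 3050 to 3424 CPM, so glial transcripts were present beside neuronal ones. Because whole cultures were measured, fewer cells of a type and less RNA per cell cannot be told apart.

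Promoter sequence is shown for 6 members: some that fell and some that rose held CACGTG in the window, and Gabarapl2 did not. The Atp6v1a stretch lies before a RefSeq start but inside the gene as annotated in GENCODE (chr16:44085402-44139705). The stretches come from the 250 bases before RefSeq transcription starts on GRCm38.p6, without bases that lie in an annotated exon, and run 5′ to 3′ in the direction of the gene. Capitals mark CACGTG. Lamp1 (chr8:13158911-13159160, plus strand), Gaa (chr11:119267713-119267886, plus strand) and Atp6v1a (chr16:44139306-44139461, minus strand) were lower after tunicamycin, Atg3 (chr16:45158707-45158784, plus strand) and Atg5 (chr10:44268089-44268338, plus strand) were higher, and Gabarapl2 (chr8:111940453-111940702, plus strand), which was lower, holds no CACGTG here.
Lamp1: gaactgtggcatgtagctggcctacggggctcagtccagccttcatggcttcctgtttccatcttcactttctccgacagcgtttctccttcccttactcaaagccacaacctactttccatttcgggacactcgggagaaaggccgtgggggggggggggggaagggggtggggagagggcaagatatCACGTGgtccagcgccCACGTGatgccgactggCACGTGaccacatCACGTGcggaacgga
Gaa: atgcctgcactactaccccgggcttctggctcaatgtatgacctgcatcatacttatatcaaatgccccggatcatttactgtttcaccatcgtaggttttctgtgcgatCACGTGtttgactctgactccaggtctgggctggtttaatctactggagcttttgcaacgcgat
Atp6v1a: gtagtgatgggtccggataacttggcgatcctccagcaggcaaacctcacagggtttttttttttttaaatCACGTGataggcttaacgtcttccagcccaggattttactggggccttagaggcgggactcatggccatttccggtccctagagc
Atg3: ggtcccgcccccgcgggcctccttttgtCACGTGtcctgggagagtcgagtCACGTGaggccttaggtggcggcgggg
Atg5: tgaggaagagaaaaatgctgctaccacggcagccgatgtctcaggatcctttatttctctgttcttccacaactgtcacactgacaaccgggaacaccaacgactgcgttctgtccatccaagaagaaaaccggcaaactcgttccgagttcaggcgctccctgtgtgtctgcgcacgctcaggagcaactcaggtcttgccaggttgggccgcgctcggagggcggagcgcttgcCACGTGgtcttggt
Gabarapl2: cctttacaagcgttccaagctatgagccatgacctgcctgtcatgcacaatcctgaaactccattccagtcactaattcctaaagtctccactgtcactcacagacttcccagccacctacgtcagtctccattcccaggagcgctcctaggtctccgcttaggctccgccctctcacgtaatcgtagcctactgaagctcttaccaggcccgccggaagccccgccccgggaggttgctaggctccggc

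RefSeq windows were found for 31 of the 39 members, 35 windows in all. CACGTG, which reads the same on both strands, was present in 9 of the 35 windows (25.7%), against 6.02% of 32841 mouse promoter windows of the same length and 7.93% of the windows of genes tested. The longer form TCACGTG, searched on both strands and lying over CACGTG, was in 20.0% of the members' windows. It was in 3.13% of all windows and 4.56% of those of genes tested. The 9 genes were Lamp1, Mcoln1, Ctsd, Ctsl, Gaa and Atp6v1a of the lysosome and Atg3, Atg5 and Atg7 of the conjugation machinery. Of these, the windows of Atp6v1a, Ctsl and Atg7 lay wholly inside the gene as annotated in GENCODE. In the window of Ctsd, 211 of 250 bases were exonic. Lamp1 held 4 copies, whose first bases lie 61, 45, 28 and 15 bases before the start. None was in a window of the initiation complex, the PI3P effectors, the LC3 and GABARAP family or the TFEB-type factors. Several windows of these classes were largely exonic, among them Gabarapl1, Wipi2 and Atg9a over all 250 bases and Gabarap over 227. The windows of Wipi1 and Wipi2, and some of Tfeb and Tfe3, lay inside the gene as annotated. Map1lc3a and Rb1cc1 had no window. The element was found in 5 of 15 windows of members that fell, 2 of 12 of members that rose and 2 of 8 of members that did not pass the test. TGATGNAA, the core recognised by ATF4-type factors, was in 2 of the members' 35 windows (5.71%), in 3.45% of all windows and in 2% of those of genes tested. TGACGTG, an element of ATF6-type factors, was in 1 of 35 (2.86%), in 1.65% and in 2.15%. Both were searched on both strands. A match describes letters, not a bound factor. CACGTG is known from lysosomal and autophagy genes, so its share among the members is no result of the treatment.

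Across the 39 genes, those that build the autophagosome rose more often than they fell, to a degree that depended on the scaling. Those of the lysosome and the LC3 family mostly fell. In edgeR's quasi-likelihood test, with an adjusted p under 0.05 as the call, 14 members rose, 16 fell and 9 did not pass. These counts stand against a very broad response: 64.3% of all genes tested were called, 31.8% higher and 32.5% lower. The members' median log2 fold change was -0.05, close to -0.02 over all genes tested, and their values ran from -0.65 to 0.61. Libraries of the 2 groups did not overlap in CPM for 25 members, 13 of them above DMSO and 12 below, while 50.9% of all genes tested did not overlap. Changes were small: only Atg13, Atg14 and Tfeb were called and at least 1.5-fold different, as were 17.1% of all genes tested. Of the 20 genes that form the autophagosome up to conjugation, 11 rose and 4 fell; their median was 0.18. Of the 10 lysosomal genes, none rose and 6 fell, with a median of -0.17. All 5 genes of the LC3 and GABARAP family fell, except that Map1lc3a turned to 0.03 when GC content and length were corrected for. Scaling by the upper quartile, which lowered the median of all genes by 0.11 on the log2 scale (a shift of -0.11), turned the members' split into 10 higher and 23 lower. The calls of Atg101, Becn1, Atg2b and Optn were lost there, and Wipi1, Atg9a and Atg7 were called lower. Under that scaling the 20 genes that form the autophagosome split almost evenly between higher and lower.

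**Figure D1:**
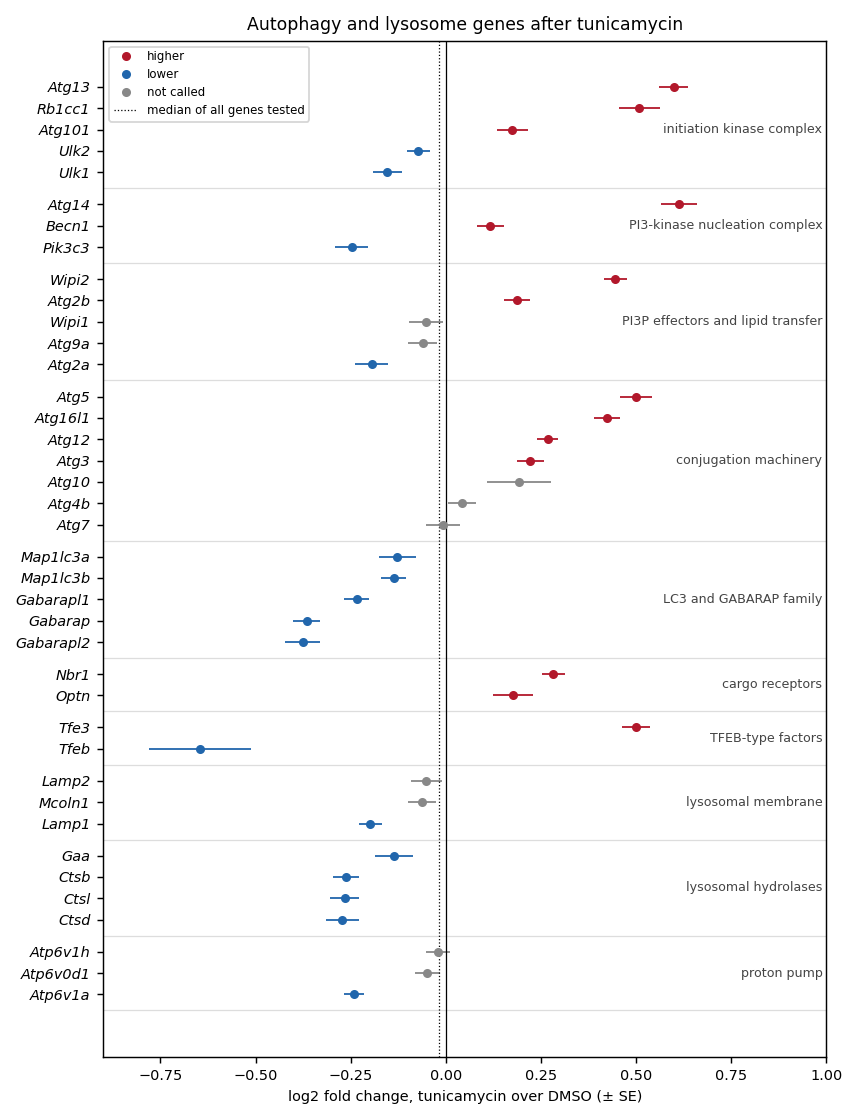
Log2 fold change of tunicamycin over DMSO for the 39 members, grouped by class, with bars of 1 SE from edgeR and a dotted line at the median of all genes tested. Points of the autophagosome-forming classes reach up to 0.61, while no lysosomal member lies above 0.

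Initiation runs through a complex of the kinases ULK1 and ULK2 with ATG13, the scaffold FIP200 (gene Rb1cc1) and ATG101. The 3 subunits without kinase activity rose and both kinases were slightly lower. Atg13 (chr2:91674618-91710576, minus strand, GRCm38), the regulatory subunit that nutrient signalling acts on, measured 58.6, 54.5, 55.2 and 55.2 CPM in DMSO replicates 1 to 4 and from 81.3 through a median of 83.6 to 90.7 CPM after tunicamycin. Every treated library lay well above every control, a log2 fold change of 0.60 ± 0.04 (SE; adjusted p = 6.26e-12, edgeR), or 1.51-fold. Rb1cc1 (chr1:6206197-6276648, plus strand) measured 85.8, 99.8, 99.8 and 104 CPM in the DMSO libraries and 128 to 152 CPM, with a median of 139 CPM, after tunicamycin. Its groups did not overlap, but its controls were more spread than those of Atg13, replicate 1 being the low one; the difference was 0.51 ± 0.05 on the log2 scale (adjusted p = 5.02e-07, edgeR). Atg101, which stabilises ATG13, rose by a smaller 0.18 ± 0.04. Ulk1 was lower by -0.15 ± 0.04 (log2), with overlapping groups, and the libraries of sequencing lane 3 alone gave 0.01. Ulk2, at -0.07 ± 0.03, passed with an adjusted p = 0.0473 (edgeR) and lost the call without DMSO replicate 2, 3 or 4 or any one of tunicamycin replicates 2 to 6, at log2 values between -0.06 and -0.08.

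The nucleation complex holds the lipid kinase VPS34 (gene Pik3c3), its regulator Beclin 1 (gene Becn1) and ATG14, the subunit that directs the kinase to autophagosome formation. Its members moved apart: the targeting subunit rose most and the catalytic subunit fell. Atg14 (chr14:47540893-47570649, minus strand) measured 20.8, 20.3, 20.5 and 21.5 CPM in the DMSO libraries and 30.5 to 34.2 CPM, median 32.0 CPM, after tunicamycin. The controls lay close together and all treated libraries were far above them, at 0.61 ± 0.05 on the log2 scale (adjusted p = 1.62e-10, edgeR), the highest value among the 39 genes. Pik3c3 fell from 38.1 ± 1.52 (SD, n = 4) to 32.3 ± 1.37 CPM (SD, n = 6), a log2 fold change of -0.25 ± 0.04. Becn1 rose by 0.12 ± 0.03, but 43.9% of its exonic bases are shared with another annotated gene (chiefly Cntd1), so part of its reads could have been assigned either way.

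PI3P on the membrane recruits the WIPI proteins, while ATG2 proteins carry lipid to it and ATG9A supplies seed vesicles. Of these 5 genes 2 rose, 1 fell and 2 did not pass the test. Wipi2 (chr5:142627698-142670588, plus strand), whose product brings the conjugation machinery to the membrane, measured 126, 120, 123 and 121 CPM in the DMSO libraries and 162 to 172 CPM, median 169 CPM, after tunicamycin. Both groups were tight and far apart (log2 fold change 0.45 ± 0.03; adjusted p = 2.04e-11, edgeR). Its paralog Wipi1 gave -0.05 ± 0.04 with an adjusted p = 0.307. The lipid transfer paralogs went opposite ways, Atg2b at 0.19 ± 0.03 and Atg2a at -0.19 ± 0.04, each with no overlap between groups. Atg9a, at -0.06 ± 0.04 and adjusted p = 0.173 (edgeR), shares 32.6% of its exonic bases with another gene.

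Conjugation uses ATG7 as the activating enzyme, ATG3 and ATG10 as conjugating enzymes, the protease ATG4B to prepare LC3, and a complex of ATG12, ATG5 and ATG16L1 that acts as the final ligase. All 3 components of the ligase complex and the LC3-conjugating enzyme Atg3 rose, none of the 7 genes fell, and the activating enzyme Atg7 averaged 33.6 CPM in both groups. Atg5 (chr10:44268358-44364291, plus strand) measured 29.4, 27.4, 27.4 and 27.7 CPM in the DMSO libraries and 38.1 to 42.3 CPM, median 39.4 CPM, after tunicamycin. Its lowest treated library was well above its highest control (log2 fold change 0.50 ± 0.04; adjusted p = 8.05e-10, edgeR). Atg16l1 (chr1:87755870-87792428, plus strand) measured 64.6, 62.4, 60.9 and 62.2 CPM in the DMSO libraries and 81.1 to 88.8 CPM, median 84.1 CPM, after tunicamycin. That separation was as clean, at 0.42 ± 0.03 on the log2 scale (adjusted p = 4.44e-10, edgeR). Atg12 rose by 0.27 ± 0.03, from 156 ± 2.75 to 189 ± 1.11 CPM, and Atg3 by 0.22 ± 0.04. The 3 genes that did not pass were Atg7 (-0.01 ± 0.04), Atg4b (0.04 ± 0.04) and Atg10 (0.19 ± 0.08; adjusted p = 0.0526, edgeR). Atg10, the scarcest of the class at 7.52 ± 1.0 CPM in DMSO, passed the test in 9 of 23 alternative settings, of which lanes 2 and 3 alone had no test. Among the 9 were the fits with GC content and length corrected for (0.27), without DMSO replicate 1 (0.28) and without tunicamycin replicate 3 or 4 (0.22 each). Summed CPM of the class lay at 118.4% to 120.7% of the DMSO mean in the 6 treated libraries.

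**Figure D2:**
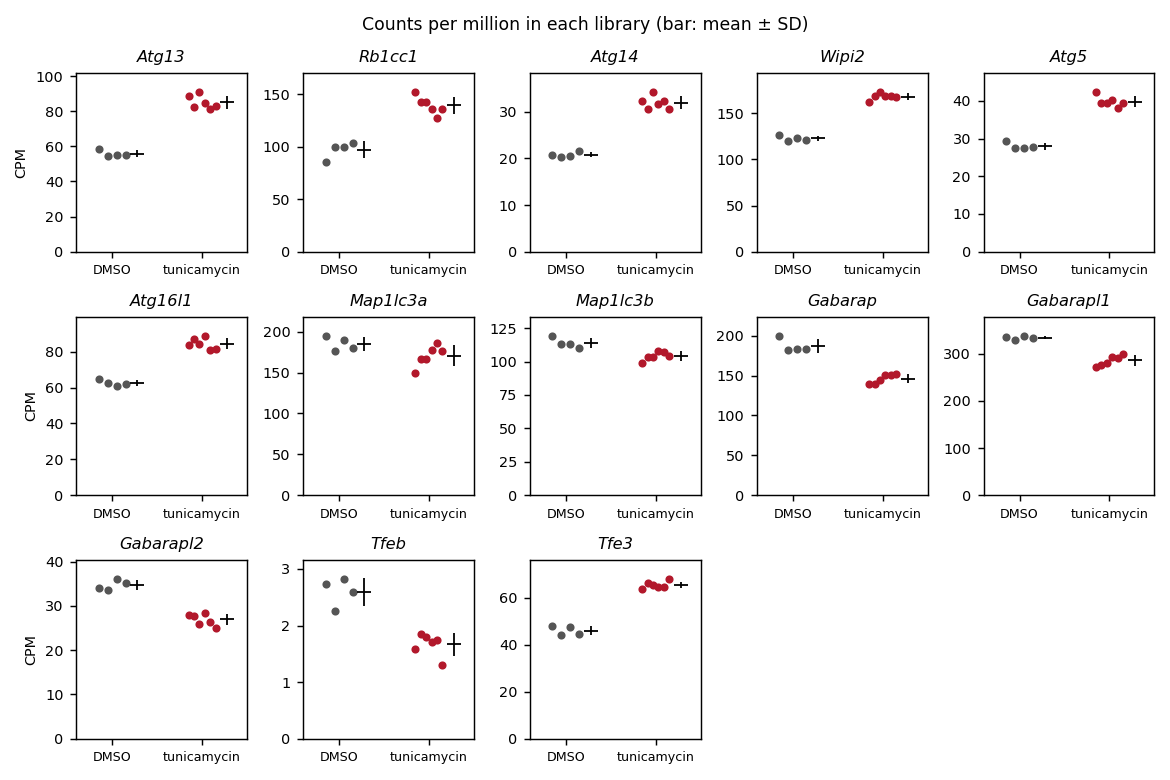
CPM in each library for the 13 members with the largest changes or in the LC3 and TFEB families, with DMSO and tunicamycin side by side, 1 point per library, crosses at the group mean ± SD and each vertical axis starting at 0. Atg13, Atg14, Wipi2, Atg5 and Tfe3 separate upward, Gabarap and Gabarapl2 downward, and Map1lc3a overlaps between groups.

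The LC3 and GABARAP proteins are the ubiquitin-like tags that the conjugation system attaches to the membrane, where they recruit cargo receptors and help fusion. Of the machinery that attaches them, the ligase genes and Atg3 rose, while Atg7 and Atg10 did not pass the test. The family's 5 genes were all lower, at a median log2 fold change of -0.23. With GC content and length corrected for, this median was -0.16 and Map1lc3a was at 0.03. Gabarap (chr11:69991143-69994951, plus strand) measured 200, 182, 183 and 183 CPM in the DMSO libraries and 139 to 152 CPM, median 147 CPM, after tunicamycin. Replicate 1 stood above the other controls, and without it the groups still lay apart; the log2 fold change was -0.37 ± 0.04 (adjusted p = 6.98e-09, edgeR). Gabarapl2 (chr8:111940703-111953612, plus strand), also called GATE-16, measured 34.0, 33.7, 36.0 and 35.2 CPM in the DMSO libraries and 25.1 to 28.4 CPM, median 27.1 CPM, after tunicamycin. No libraries overlapped, and the change was -0.38 ± 0.05 (adjusted p = 2.63e-07, edgeR), although 12.2% of the gene's 50-base stretches also occur in other genes, mostly a near-identical copy.

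Gabarapl1 (chr6:129533160-129542346, plus strand) measured 336, 330, 338 and 334 CPM in the DMSO libraries and 273 to 300 CPM, median 286 CPM, after tunicamycin. All treated libraries were below the narrow control range, at -0.23 ± 0.03 on the log2 scale, and 28.3% of its exonic bases are shared with another gene. Map1lc3b (chr8:121590361-121598760, plus strand), the gene of the most used autophagosome marker LC3B, measured 119, 113, 113 and 110 CPM in the DMSO libraries and 98.5 to 108 CPM, median 104 CPM, after tunicamycin. Its groups came close to each other without overlapping (-0.14 ± 0.03; adjusted p = 0.00111, edgeR). Map1lc3a (chr2:155276297-155278073, plus strand) measured 195, 176, 189 and 180 CPM in the DMSO libraries and 149 to 186 CPM, median 172 CPM, after tunicamycin. Here the groups overlapped, the change was -0.13 ± 0.05 with an adjusted p = 0.0308 (edgeR), and the call was lost without DMSO replicate 1, 3 or 4 or tunicamycin replicate 2 or 3 (-0.10 to -0.13).

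Levels within the family were compared as CPM per kilobase of the longest coding transcript. The shares and their order depend on that length. Exonic bases in all were 7517 for Map1lc3b, 2013 for Gabarapl1 and 1181 for Map1lc3a, against 2633, 1820 and 1112 in that transcript. In DMSO, Gabarapl1 made up 33.3% ± 0.729 of the family's summed level (SD, n = 4), Map1lc3a 30.1% ± 0.588, Gabarap 25.04% ± 0.589, Map1lc3b 7.82% ± 0.133 and Gabarapl2 3.75% ± 0.15. With that length the order was kept after tunicamycin. Gabarapl1 was at 33.2% ± 0.551 (SD, n = 6), Map1lc3a at 32.3% ± 1.08, Gabarap at 22.8% ± 0.359, Map1lc3b at 8.35% ± 0.177 and Gabarapl2 at 3.40% ± 0.273. The 2 leading genes came within their spreads of each other only after tunicamycin. The family's summed CPM in the treated libraries lay at 80.4% to 89.1% of the DMSO mean.

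Cargo receptors bind both the tagged membrane and ubiquitinated cargo. Both receptors among the members rose: Nbr1 from 210 ± 3.57 to 257 ± 6.66 CPM (log2 fold change 0.28 ± 0.03) and Optn from 24.9 ± 1.94 to 28.3 ± 1.27 CPM (0.18 ± 0.05). The groups of Nbr1 did not overlap and those of Optn did. A further receptor, Sqstm1 (p62), rose from 392 ± 15.9 to 469 ± 16.0 CPM (0.25 ± 0.03), with 17.3% of its exonic bases shared with another gene.

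The TFEB-type factors TFEB and TFE3 are related basic helix-loop-helix proteins that move to the nucleus when lysosomal nutrient signalling drops, so their activity is set largely after transcription. Their transcripts moved in opposite directions. Tfe3 (chrX:7762560-7775202, plus strand) measured 48.0, 44.0, 47.6 and 44.7 CPM in the DMSO libraries and 63.9 to 67.8 CPM, median 65.0 CPM, after tunicamycin. Its groups were widely separated (0.50 ± 0.04; adjusted p = 9.09e-11, edgeR). Tfeb (chr17:47737030-47792419, plus strand) measured only 2.73, 2.26, 2.81 and 2.58 CPM in the DMSO libraries and 1.30 to 1.85 CPM, median 1.73 CPM, after tunicamycin. All its treated libraries were below all controls, a log2 fold change of -0.65 ± 0.13 (adjusted p = 0.000241, edgeR), the lowest of the 39 members. Per kilobase, Tfe3 was 12.3 ± 0.808 times the level of Tfeb in DMSO (11.7 to 13.5) and 27.5 ± 4.29 times after tunicamycin (24.8 to 36.0).

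Lysosomal members comprise 3 membrane proteins, 4 hydrolases and 3 subunits of the proton pump that acidifies the lumen. All 4 hydrolases fell, as did 1 gene each of the other classes, and none rose. Among the hydrolases, Ctsb went from 398 ± 13.4 to 334 ± 15.1 CPM (-0.26 ± 0.03), Ctsd from 206 ± 14.1 to 172 ± 9.66 CPM (-0.27 ± 0.04) and Ctsl from 123 ± 6.40 to 103 ± 4.13 CPM (-0.27 ± 0.04). These are the proteases cathepsin B, D and L, and in each the groups did not overlap. Their exons overlap other annotated genes over 12.8% (Ctsb), 34.4% (Ctsd) and 26.8% (Ctsl) of bases. Gaa, the glycogen-degrading acid glucosidase, was lower by -0.14 ± 0.05 (adjusted p = 0.0258, edgeR) with overlapping groups. Its call was lost without DMSO replicate 1 (-0.09), DMSO replicate 2 (-0.14) or tunicamycin replicate 2 (-0.13), and was also lost with GC content and length corrected for (-0.05; adjusted p = 0.203, edgeR). Within single lanes Gaa was at -0.31, -0.05 and 0.03.

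Lamp1, a heavily glycosylated protein of the lysosomal membrane, fell from 381 ± 13.3 to 334 ± 5.94 CPM (-0.20 ± 0.03) without overlap. Lamp2, its relative that also serves chaperone-mediated autophagy, was at -0.05 ± 0.04 (adjusted p = 0.285) and Mcoln1, the lysosomal calcium channel, at -0.06 ± 0.04 (adjusted p = 0.137, edgeR). Of the pump subunits, Atp6v1a, the catalytic subunit, fell from 956 ± 5.86 to 814 ± 15.9 CPM (-0.24 ± 0.03), again without overlap. Atp6v1h (-0.02 ± 0.03) and Atp6v0d1 (-0.05 ± 0.03) did not pass. With GC content and length corrected for, Lamp2 (-0.18; adjusted p = 0.00389) and Atp6v1h (-0.14; adjusted p = 0.0269, edgeR) were called lower, and the median of the membrane class went from -0.06 to -0.18. As sums over the class, the treated libraries lay at 77.6% to 88.8% of the DMSO mean for the hydrolases, 88.5% to 93.1% for the membrane proteins and 87.0% to 91.5% for the pump.

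**Figure D3:**
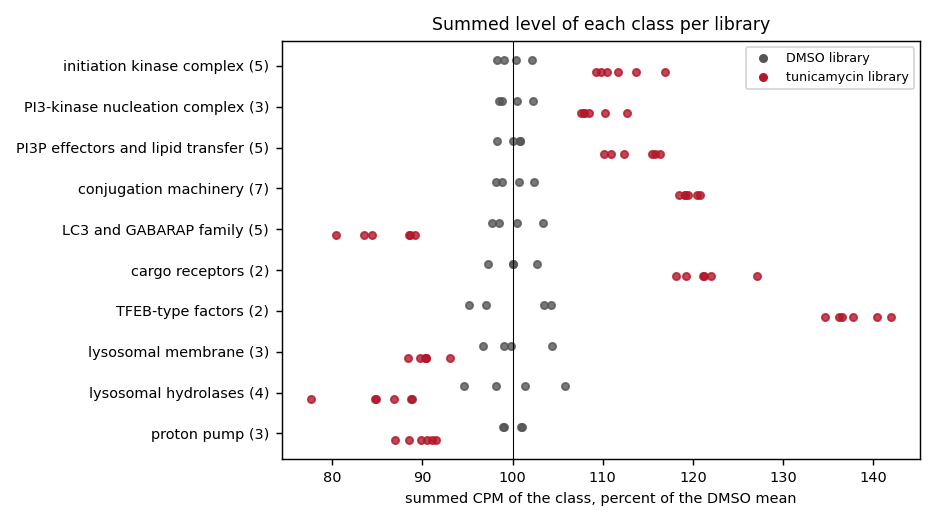
Summed CPM of each class in every library, as a percentage of the class's DMSO mean (100%), with 1 point per library. The 6 classes above 100% after tunicamycin are the initiation, nucleation, PI3P effector and conjugation classes, the cargo receptors and the TFEB-type factors, the last led by Tfe3, while the LC3 family and the 3 lysosomal classes are below.

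Markers of several cell types moved with these falls, while 32.5% of all genes tested fell and 31.8% rose. All 8 astrocyte markers fell, their summed level going from 3050 to 3424 CPM in the DMSO libraries to 2130 to 2362 CPM after tunicamycin. Of 6 neuronal markers 5 fell, their sum going from 6203 to 6707 CPM to 5143 to 5438 CPM, with Rbfox3 at 0.07 ± 0.04 on the log2 scale as the exception. Microglial markers were scarce, 10 genes summing to 17.3 to 22.0 CPM in DMSO and 12.3 to 15.3 CPM after tunicamycin, and 7 of the 9 tested fell. The 2 most abundant did not pass: Aif1 (6.14 CPM in DMSO, log2 -0.001 ± 0.080) and Csf1r (3.33 CPM, -0.10 ± 0.11). All 6 markers of proliferating cells fell (79.4 to 101 CPM, then 45.9 to 57.3 CPM), as did 3 of 4 of oligodendrocyte precursors (145 to 199 CPM, then 86.2 to 110 CPM). Endothelial markers did not fall: of 4 tested, Flt1 rose (1.19 ± 0.23 on the log2 scale, at 0.688 CPM in DMSO) and 3 did not pass, with the 6 listed summing to 35.6 to 75.1 CPM, then 52.6 to 79.1 CPM, mostly from Kdr; the defining Cldn5 was near 0 in both groups, at 0.01 CPM. Of 4 oligodendrocyte markers tested Mog rose (0.46 ± 0.11), Cnp fell (-0.73 ± 0.06) and 2 did not pass, and the 6 listed summed to 40.7 to 48.1 CPM, then 34.0 to 36.9 CPM. Of 6 fibroblast and mural markers 2 fell and 4 did not pass (113 to 200 CPM, then 86.2 to 149 CPM), and the 5 red blood cell genes, none of them tested, summed to at most 0.52 CPM. The falls of the astrocyte, neuronal, microglial, precursor and proliferation lists run in the direction of the lysosomal and LC3 family genes, and their part in those results was not tested. All groups were sequenced over the same 3 lanes, as the file names give them. Lanes 2 and 3 held 1 DMSO library each, so their values rest on a single control and had no test. Within each lane the conjugation genes Atg5 (0.53, 0.52 and 0.48) and Atg16l1 (0.43, 0.48 and 0.38) were higher. Gabarap (-0.45, -0.33 and -0.28), Ctsb (-0.34, -0.25 and -0.17) and Atp6v1a (-0.25, -0.25 and -0.22) were lower, while some other members changed sign between lanes.

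The other genes of the pathway, 127 in 7 lists, were examined in the same fit, and 125 of them were tested. In them 38 rose, 67 fell and 20 did not pass, at a median log2 fold change of -0.13, against -0.02 over all genes tested. Of all genes tested 31.8% rose and 32.5% fell, and the counts by list stand against those shares. By list the directions differed. Of 19 further genes of the autophagy machinery 13 rose and 3 fell (median 0.25). Uvrag, a partner of the Beclin 1 complex, went from 24.9 ± 1.85 to 43.4 ± 1.13 CPM (0.79 ± 0.05), and Atg4a, an LC3 protease with a near-identical copy in the genome, from 2.73 ± 0.228 to 6.25 ± 0.919 CPM (1.19 ± 0.12). The receptor gene Calcoco1 (-0.43 ± 0.05) and the protease gene Atg4d (-0.37 ± 0.06) fell. Uvrag shares 17.6% and Atg4d 19.3% of exonic bases with another gene.

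Of 36 other lysosomal hydrolases and their cofactors, 28 fell and 4 rose (median -0.29), while 32.5% of all genes tested fell. Gusb, which encodes beta-glucuronidase, fell most, from 9.02 ± 1.0 to 4.4 ± 0.285 CPM (-1.04 ± 0.08), and Ctsz, a cathepsin, from 12.1 ± 1.97 to 7.45 ± 1.1 CPM (-0.71 ± 0.11). Against that direction, Gla, the alpha-galactosidase, rose from 14.2 ± 0.566 to 21.5 ± 1.02 CPM (0.60 ± 0.05) and Pla2g15, a lysosomal phospholipase, from 24.2 ± 2.23 to 35.2 ± 0.479 CPM (0.53 ± 0.05). Among 15 other pump subunits 11 fell and 2 rose (median -0.16). Atp6v1g2 (-0.41 ± 0.04) and Atp6v1e1 (-0.39 ± 0.04) of the soluble sector fell most. The 2 that rose, Atp6v0a1 (0.12 ± 0.03) and Atp6v0a2 (0.16 ± 0.04), are forms of the membrane sector's a subunit, and both lost the call with upper-quartile scaling (0.00 and 0.05) and within lane 1 alone (0.07 and 0.14).

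The lists in between were mixed. Of 14 genes of fusion with the lysosome 5 rose and 6 fell: Plekhm1, an adaptor of late endosomes and lysosomes, reached 0.73 ± 0.04 and the tether Epg5 0.37 ± 0.04, while the SNARE gene Snap29 was at -0.32 ± 0.04 and the HOPS tether subunit Vps18 at -0.32 ± 0.05. Of 16 tested genes of a list on TFEB control 5 rose and 8 fell; most of them act in lysosomal nutrient signalling, and the list also holds Mitf, a related factor gene, and Ppp3cb, a gene of the phosphatase calcineurin. Fnip1, a folliculin partner, went from 58.7 ± 4.46 to 90.8 ± 7.11 CPM (0.62 ± 0.06) and Slc38a9, an arginine sensor, to 0.33 ± 0.05 on the log2 scale. Rragd, a Rag GTPase and a known TFEB target, fell from 130 ± 1.70 to 85.3 ± 3.30 CPM (-0.62 ± 0.03), and Lamtor4, a Ragulator subunit, by -0.45 ± 0.05. Of 16 other membrane proteins 5 rose, led by the transporter gene Mfsd8 (0.37 ± 0.06) and the chloride-proton exchanger gene Clcn7 (0.30 ± 0.04), and 6 fell, led by Abca2 (-0.41 ± 0.03) and Sidt2 (-0.30 ± 0.03). For Mfsd8, 11.7% of the 50-base stretches also occur in other genes, and Sidt2 shares 10.4% of its exonic bases with another gene.

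Mannose 6-phosphate is the glycan tag by which new hydrolases are sorted to the lysosome. Of 9 genes of that route 4 rose and 5 fell. The sorting receptor gene Igf2r rose from 117 ± 4.12 to 142 ± 3.38 CPM (0.26 ± 0.03) and the adaptor gene Gga3 by 0.32 ± 0.03, while Gnptab, whose enzyme begins the tag, fell from 145 ± 3.25 to 116 ± 4.02 CPM (-0.33 ± 0.03). Nagpa, whose enzyme completes the tag, was at -0.31 ± 0.12 (adjusted p = 0.0317, edgeR) with overlapping groups. That call was lost without DMSO replicate 1 (-0.31) or 3 (-0.15) and without tunicamycin replicate 1 (-0.28), 4 (-0.30) or 5 (-0.29), and lane 3 alone gave 0.15.

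**Figure D4:**
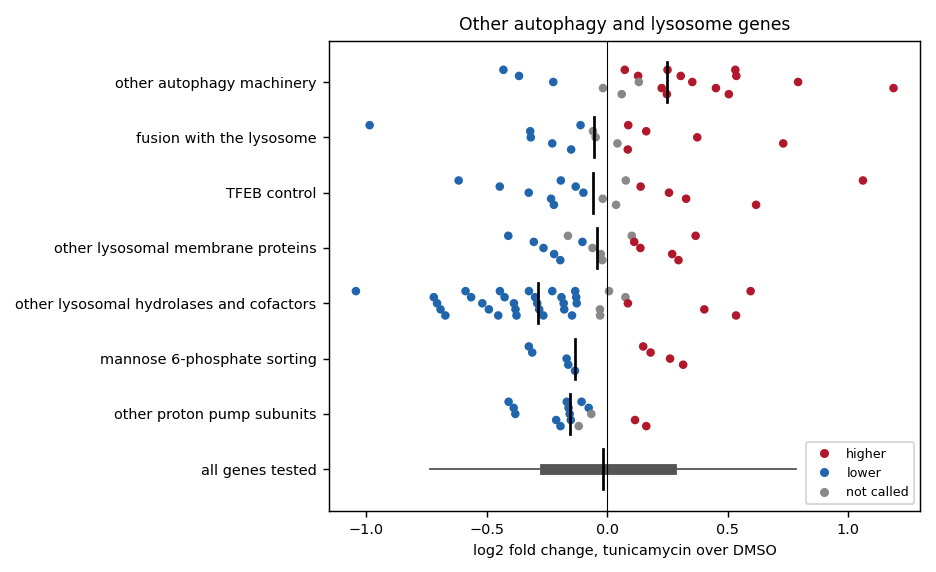
Log2 fold change of tunicamycin over DMSO for the 125 tested genes of the 7 further pathway lists, 1 point per gene with the median of each list. The autophagy machinery list has its median at 0.25, and the hydrolase list at -0.29.

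The authors' deposited tables of differential expression list 4697 genes as higher and 4814 as lower after tunicamycin. They hold 14 of the 39 members among the higher and 16 among the lower, each with the direction of the edgeR call. In the authors' deposited table Atg14 stands at a log2 fold change of 0.61 and Tfeb at -0.65.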

How the data were processed

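Polyadenylated RNA of 10 libraries was sequenced from a kit that does not mark strand, per the labels' protocols. The authors deposited raw read counts per gene for each library; STAR 2.5.2b, featureCounts, Subread 1.5.1, FastQC 0.11.5, DESeq2 and the build mm10 are named in the submitters' processing notes, with no roles. The annotation and the counting settings for strand and multiple matches were not given in the sources used here, so overlapping and copied genes are uncertain. The authors' deposited comparison tables give log2 fold changes, adjusted p-values and a normalized signal, which equals the counts divided by 1 factor per library. Depth was 21055289 to 29234887 counts per library.

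Of 48709 identifiers 48349 matched GENCODE M21; the unmatched 360 held 0.0462% of counts. Counts were tested with edgeR 4.0.16 (R 4.3.3; TMM scaling, filterByExpr, robust quasi-likelihood F test), all 10 libraries in 1 fit, with Benjamini-Hochberg adjustment over 15660 genes. CPM are counts per 1000000 of the library total, and an SE is the absolute log2 fold change over the square root of F. No libraries were near-repeats: within groups, every pair gave a chi-square per degree of freedom of 2.07 to 9.64. All members are named; values per library are given for called members with an absolute log2 fold change of at least 0.3 and for the LC3 and TFEB families. Of each other list the 2 called genes higher and the 2 lower with the largest change at a mean of at least 5 CPM are named, besides Sqstm1 and 4 genes that check the treatment. Members and lists were chosen with earlier results of these data known. Alternatives changed the scaling (DESeq2 1.42.0 size factors, upper quartile), the test, the filter, the libraries, the lane and the correction for GC content and length.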

Additional observations from a re-analysis of the deposited data

Results flagged for a closer look

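In 6 of 78 groups of values, 1 library stood apart from the rest of its group by Dixon's criterion, which chance alone would give in about 1 group in 20. Becn1 in DMSO replicate 4 was the lowest control at 64.69 CPM, the next being 67.03 CPM. Wipi1 in DMSO replicate 1 was the highest at 31.17 CPM, the next being 29.20 CPM. For Atg4b, DMSO replicate 3 was the highest at 68.37 CPM, above 63.61 CPM. Gabarap in DMSO replicate 1 reached 199.7 CPM, above 182.9 CPM, and without that library its groups still did not overlap. Nbr1 in tunicamycin replicate 1 reached 270 CPM, above 257 CPM. Atp6v1h in DMSO replicate 1 reached 239.6 CPM, above 226.6 CPM. DMSO replicate 1 accounts for 3 of these 6 values.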

How the results depend on the processing

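Of the 39 members, 21 kept their direction in all 23 alternatives and their side of the threshold in every alternative that had a test. Lanes 2 and 3 alone, with 1 DMSO library each, gave log2 fold changes without a test. Members called higher numbered 14 to 15 with 1 library left out and members called lower 13 to 16, against 14 and 16 in the fit reported; genes called higher ran from 4796 to 4963 and genes called lower from 4726 to 4997. For pathway lists called, higher, the same alternatives gave 35 to 38 and pathway lists called, lower, 62 to 66. Pathway lists called, higher, dropped from 38 to 25 with upper-quartile scaling and to 24 in lane 1 alone, where fewer samples entered. Signs reversed for Map1lc3a under GC and length offsets (0.0255) and, in lane 3 alone, for Ulk1 (0.0067), Map1lc3a (0.0023), Gaa (0.0258) and Nagpa (0.15); the cause was not tested. Signs also changed for members that did not pass in the fit reported, nor in these alternatives where a test was made. These were Atg4b with upper-quartile scaling (-0.0717), with GC and length offsets plus the block (-0.0080) and in lane 2 alone (-0.0401); Atg9a with GC and length offsets (0.0119) and with the block added (0.0050); Atp6v0d1 in the same fits (0.0403 and 0.0293) and in lane 3 alone (0.0338); Lamp2 in lane 1 alone (0.0090); Mcoln1 in lane 2 alone (0.0333); Wipi1 in lane 3 alone (0.0231); and Atp6v1h with no filter (0.0005) and in lanes 2 (0.0091) and 3 (0.0121) alone. Atg7 ran from -0.0329 to 0.0225 with 1 library left out and was at 0.0023 with DESeq2, 0.0134 with no filter, 0.0006 with the replicate block, 0.0014 for replicates 1 to 4 without it, 0.0106 with GC and length offsets plus the block and 0.0380 in lane 2 alone. Ulk2 lost its call in 15 alternatives, and Atg10 gained one in 9. Upper-quartile scaling added Wipi1, Atg9a, Atg7, Lamp2, Mcoln1, Atp6v1h and Atp6v0d1 to the members called lower (23 in all, with 10 higher), and gave genes called higher as 3632 and genes called lower as 6934. DESeq2 called 14 members higher and 14 lower.

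The labels do not say that replicate numbers pair the samples. Same-numbered libraries deviated with correlations of -0.22, 0.01, -0.06 and -0.07, and no library matched its own number best. Without a reference value for paired cultures, these correlations cannot exclude a pairing. With the replicate block over replicates 1 to 4, members called higher were 14 and members called lower 14, with Ulk2 and Gaa lost, genes called higher 4417 and genes called lower 4398. The same libraries without the block, an alternative chosen after seeing the data, gave 14 and 15 members. Depth limits Tfeb most, the scarcest member.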

Other observations

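Mitf, a further TFEB-type factor gene, was chosen after its values were seen, since it fell below the expression minimum for naming. It rose from 1.66 ± 0.417 (SD, n = 4) to 3.49 ± 0.537 CPM (SD, n = 6), a log2 fold change of 1.06 (adjusted p = 4.25e-06, edgeR), without overlap between groups. In this family Mitf and Tfe3 were thus higher and Tfeb lower in the treated libraries.

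Among promoter windows of the other pathway lists, CACGTG was present in 8 of 33 windows of the other hydrolases and cofactors (24.2%), 3 of 8 of the mannose 6-phosphate genes (37.5%) and 4 of 18 of the TFEB control genes (22.2%). It was in 2 of 12 of the fusion genes (16.7%), 2 of 18 of the other membrane proteins (11.1%), 2 of 23 of the further autophagy machinery (8.70%) and 1 of 14 of the other pump subunits (7.14%). The share was 7.93% of the windows of genes tested.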
